A study of Mus musculus with 12 samples.

Results

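The expression of 34 genes of cholesterol synthesis, transport and turnover was examined in the mouse brain. They were taken by gene symbol from a table of 55385 genes. By role they comprised 7 genes of the mevalonate pathway to farnesyl diphosphate, 11 genes from squalene to cholesterol, 7 genes of sterol sensing and transcription, 4 genes of lipoprotein, efflux and uptake, and 5 genes of intracellular transport, storage and turnover. The libraries were made from poly(A) RNA of the whole brain of 12 wild-type (WT) male mice of the strain C57/BL6J that were 8 weeks old at the start, with 3 mice in each of 4 groups. The C_W mice received water and no stress, and the C_O mice received krill oil, a marine oil whose n-3 fatty acids are largely carried by phospholipids, at 200 mg/kg per day for 5 weeks without stress. The MS_W mice received water and chronic unpredicted mild stress (CUMS) for 4 weeks, and the MS_O mice received both CUMS and krill oil at the same dose. The controls of the oil were given water and not another oil, and the stress was a mixture of housing and sensory stressors, so that neither a single oil component nor a single stressor was tested. The mice of each group were drawn at random from a larger cohort and perfused with saline before the brain was taken. Each mouse gave 1 library, named by its group and mouse number.

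The brain makes nearly all of its own cholesterol, because lipoproteins of the blood do not cross the blood-brain barrier. Acetyl-CoA is turned through mevalonate and farnesyl diphosphate into squalene and then into cholesterol, most of which ends up in myelin. SREBP transcription factors switch these enzymes on when sterols are low, astrocytes pass cholesterol to neurons on APOE particles loaded by ABCA1 and ABCG1, and neurons remove the surplus by turning it into 24S-hydroxycholesterol, which also activates the liver X receptors.

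Levels are given as FPKM, which are fragments scaled to transcript length and to all mapped fragments of a library. Tests covered 21393 genes whose mean FPKM reached 0.1, and all 34 cholesterol genes were among them. The log2 fold change (log2FC) is the difference between group means of log2(FPKM + 1), which understates the change of low genes, with its standard error (SE). A single limma fit of the 4 groups gave unadjusted p values and Benjamini-Hochberg adjusted ones over the 21393 genes. For 3 mice against 3, the smallest p of an exact permutation test (two-sided) is 0.1. In whole tissue, fewer cells of a type and less RNA per cell cannot be told apart.

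Estimated counts summed to between 50912906 and 75678721 per library, with a median of 74795814 in C_W and of 56057766 to 57053930 in the other groups, and the smallest estimated count of a cholesterol gene in any library was 116. A pair of libraries, C_O72 and MS_W95, differed from the other 10. The correlation r of log2(FPKM + 1) across genes was 0.97 between them, at most 0.937 between either of them and another library, and at least 0.959 among the other 10. The summed FPKM of 4 hindbrain genes, with Hoxc4 and Slc6a5 among them, was 63.1 in C_O72 and 22.4 in MS_W95 and at most 0.0614 elsewhere. All 5 oligodendrocyte markers were higher in both libraries than in any other, with sums of 902 and 521 against 197 to 370. All 3 markers of the cortex were lowest there, with sums of 28.3 and 41.8 against 116 to 343. The other MS_W libraries, MS_W31 and MS_W75, had sums of 92.1 and 93.8 for 4 hypothalamic neuropeptide genes, against at most 12.9 elsewhere. Marker genes of brain regions thus differed between mice of 1 group, and between groups too. For this reason the comparisons are repeated with 10 libraries, leaving out C_O72 and MS_W95. The MS_W mice are then MS_W31 and MS_W75 alone, so the high hypothalamic sums coincide with that group. In comparisons with MS_W, region content and group cannot be told apart, and the 10 libraries do not remove this.

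The cholesterol genes covered a wide range of levels. Apoe, which encodes the main protein of the lipoprotein particles of the brain, had a mean FPKM of 357 over the 12 libraries and was the most abundant. Cyp46a1, the neuronal enzyme that makes 24S-hydroxycholesterol, followed at 61.2, Hmgcs1, which makes HMG-CoA, at 42.8, Srebf2, the main SREBP of sterol synthesis, at 27.4 and Insig1, which holds SREBPs in the endoplasmic reticulum, at 24.0. At the low end were Soat1, which esterifies cholesterol for storage, at 3.04, Tm7sf2, a sterol C14 reductase, at 3.02 and Nr1h3, the liver X receptor alpha, at 1.29. The highest library exceeded the lowest by a median factor of 1.85 over the 34 genes, and by 1.36 in the 10 libraries without C_O72 and MS_W95. Over the 12 libraries this factor was largest for Cyp46a1 (5.29), Nr1h3 (4.98) and Acat2 (3.14), and smallest for Tm7sf2 (1.19) and for Scap (1.22), the escort protein of SREBPs. In the 10 libraries it was largest for Abca1 (2.50), Apoe (2.35) and Fdft1 (2.07), and only 1.34 for Cyp46a1.

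**Figure D1:**
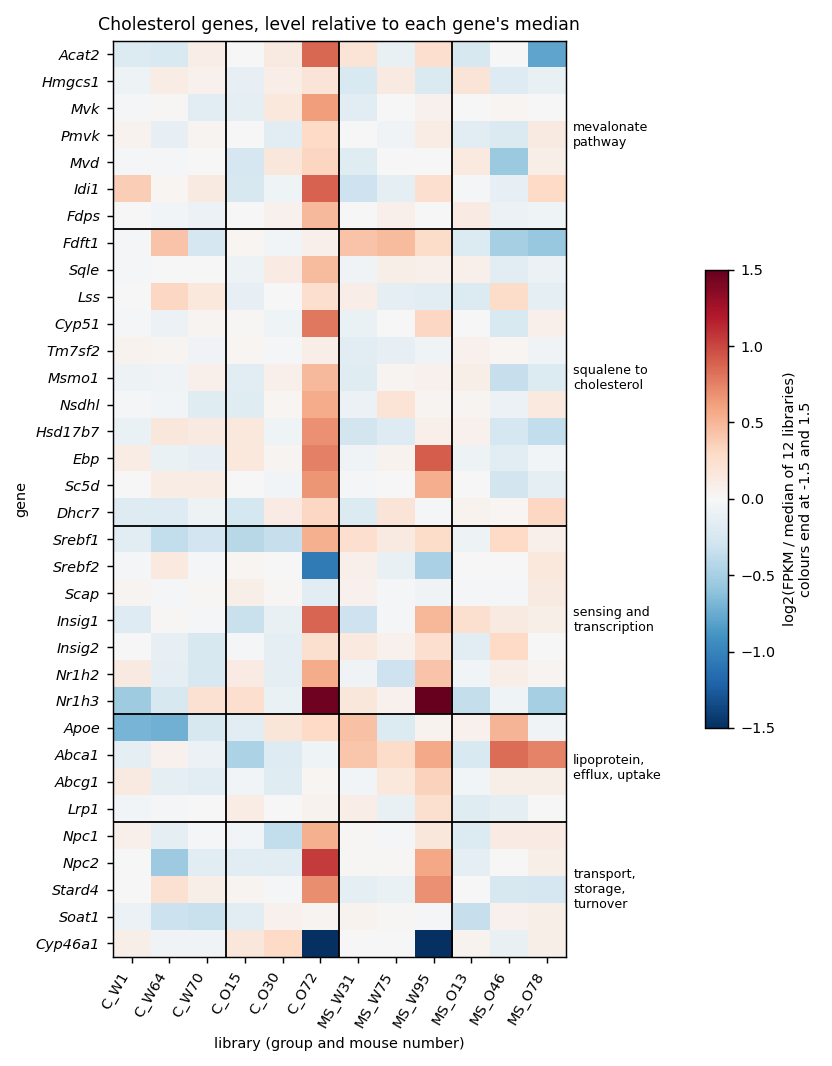
FPKM of each of the 34 cholesterol genes (rows, by role) in each of the 12 libraries (columns, by group), as log2 of the ratio to that gene's median, red above and blue below. The column of C_O72 is red in most rows of synthesis enzymes, and the darkest blue of the Cyp46a1 row lies in C_O72 and MS_W95.

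Promoter sequences were available for 28 of the 34 genes in RefSeq (build GRCm38.p6), and the 250 bases before each transcription start were searched on both strands for motifs that are common in sterol gene promoters. The sterol regulatory element was searched as TCACNCCAC, the CCAAT box as CCAAT and the GC box as GGGCGG, and none of them contains another. The sterol regulatory element was found in 1.22% of all 27025 genes and in 1 cholesterol gene, Hmgcs1, where it began at position -137, counted back from -1 at the base before the start. The CCAAT box was found in 37.5% of all genes and in 21 of the 28 cholesterol genes. The GC box was found in 35.4% of all genes and in 23 of the 28. The genes Stard4, Abcg1, Fdft1, Npc1, Fdps and Sqle were not matched. Shown are Hmgcs1 as the most abundant synthesis enzyme and the only match of the sterol regulatory element, Ebp as an enzyme that was high in both libraries that stood apart, Cyp46a1 as the gene that was low in both, and Apoe as the most abundant gene. Each is 5′ to 3′ on the gene's strand and ends at the base before the start, with all 3 motifs in capitals. They lie at chr13:119690101-119690350 (plus strand) for Hmgcs1, chrX:8193513-8193762 (minus strand) for Ebp, chr12:108334066-108334315 (plus strand) for Cyp46a1 and chr7:19699189-19699438 (minus strand, the outermost of 3 listed starts) for Apoe.
Hmgcs1: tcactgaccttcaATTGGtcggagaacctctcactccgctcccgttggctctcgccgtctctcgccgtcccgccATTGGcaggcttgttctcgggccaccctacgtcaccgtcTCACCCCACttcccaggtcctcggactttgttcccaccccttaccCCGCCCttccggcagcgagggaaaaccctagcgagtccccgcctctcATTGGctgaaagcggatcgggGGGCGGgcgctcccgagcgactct
Ebp: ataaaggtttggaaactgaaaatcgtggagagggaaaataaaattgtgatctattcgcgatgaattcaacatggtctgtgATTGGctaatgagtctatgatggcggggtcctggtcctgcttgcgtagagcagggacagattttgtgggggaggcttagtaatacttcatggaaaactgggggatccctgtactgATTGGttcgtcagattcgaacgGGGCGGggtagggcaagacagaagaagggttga
Cyp46a1: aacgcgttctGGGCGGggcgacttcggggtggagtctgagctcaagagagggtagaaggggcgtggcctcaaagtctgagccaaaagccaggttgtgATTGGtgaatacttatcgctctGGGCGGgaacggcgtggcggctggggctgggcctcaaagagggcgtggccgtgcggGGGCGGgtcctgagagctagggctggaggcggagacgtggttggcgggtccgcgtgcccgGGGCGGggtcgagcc
Apoe: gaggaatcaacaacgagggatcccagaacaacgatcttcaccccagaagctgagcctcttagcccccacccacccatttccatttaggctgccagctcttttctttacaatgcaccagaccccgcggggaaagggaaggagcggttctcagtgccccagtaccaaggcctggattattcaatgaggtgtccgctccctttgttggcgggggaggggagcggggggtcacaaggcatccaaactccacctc
The Hmgcs1 window held the sterol regulatory element, 3 CCAAT boxes and 2 GC boxes. The Ebp window held 2 CCAAT boxes and 1 GC box, and the Cyp46a1 window held 1 CCAAT box and 4 GC boxes. The Apoe window held none of the motifs. A match is a description of the letters and does not show binding. An element with other letters or outside the window would be missed, so a gene without a match may still have one.

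The first comparison asked how CUMS changed these genes without krill oil (C_W vs. MS_W). Apoe was 1.57-fold higher in MS_W, and it was the only gene with an unadjusted p under 0.05. Next by p were Srebf1, of the sterol sensing genes, and Fdft1, of the synthesis enzymes (log2FC 0.33, SE 0.16, limma, unadjusted p = 0.0603). Of the 34 genes, 1 had an unadjusted p under 0.05 by limma, against 10.5% of all tested genes, and 0 passed after adjustment, against 0.00467% of all genes. Among the 10 libraries 3 genes had an unadjusted p under 0.05, against 15.4% of all genes. Both counts were below those shares. No cholesterol gene passed after adjustment in any comparison by edgeR either, and 1 did by DESeq2, which was Fdft1 in MS_W vs. MS_O, where DESeq2 passed 0.369% of all genes. Among all 2245 tested genes with an unadjusted p under 0.05, 1435 were higher in MS_W, and with each library centred on its median 683 of 2168 were higher. The median log2FC was 0.09 over the 34 genes and 0.06 over all tested genes.

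Apoe (ENSMUSG00000002985, chromosome 7, 19696109 to 19699188 on GRCm38) had an FPKM of 220, 216 and 302 in C_W and of 483, 309 and 370 in MS_W. Every MS_W mouse was above every C_W mouse, although MS_W75 and C_W70 were close. The log2FC was 0.65 (SE 0.22, limma, unadjusted p = 0.0148, adjusted p = 0.361), and it was 0.67 (SE 0.25, unadjusted p = 0.0278) in the 10 libraries. Without C_W1, C_W64 or MS_W31 the limma p was 0.0508, 0.0539 and 0.0675. In an ordinary linear model with a library size covariate the log2FC was 0.42 (unadjusted p = 0.304). That covariate is the log2 of a library's summed FPKM up to the upper quartile of its detected genes. FPKM are already scaled to all mapped fragments, so the covariate is not a correction for depth. Every C_W library was deeper than every MS_W library, so that depth and CUMS cannot be told apart in this comparison. The summed FPKM of 5 astrocyte markers was 97.7 to 117 in C_W and 133 to 226 in MS_W, also without overlap. That of 4 neuronal markers was 846 to 918 and 640 to 696. Not every marker followed its sum. The astrocyte marker Aldh1l1 had an FPKM of 15, 11.1 and 13.3 in C_W and of 10.8, 10.6 and 16.2 in MS_W. The neuronal marker Tubb3 had 228, 220 and 196 in C_W and 227, 228 and 202 in MS_W. Each other marker of these lists moved with its sum, without overlap. Between C_O and MS_O, Apoe had a log2FC of 0.07 (SE 0.22), with an FPKM of 373, 507 and 343 in MS_O. The astrocyte sums were 99.8 to 203 in C_O and 105 to 166 in MS_O. The part of cell types in the Apoe levels was not tested in any comparison.

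Srebf1, the SREBP gene best known for fatty acid synthesis, had an FPKM of 7.10, 6.21 and 6.57 in C_W and of 9.50, 8.75 and 9.68 in MS_W (ENSMUSG00000020538, chromosome 11, 60199089 to 60222581). The groups did not overlap and the mice of each group lay close together. The log2FC was 0.44 (SE 0.20, limma, unadjusted p = 0.0506), and 0.41 (SE 0.11, unadjusted p = 0.00494, adjusted p = 0.134) in the 10 libraries. Its paralogue Srebf2 had an FPKM of 28.5, 31.9 and 28.5 in C_W and of 30.5, 26.7 and 20.6 in MS_W, which overlapped. The log2FC of Srebf2 was -0.20 (SE 0.25).

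Abca1, the pump that loads cholesterol onto APOE, had an FPKM of 2.51, 2.87 and 2.58 in C_W and of 3.65, 3.31 and 4.07 in MS_W. These did not overlap, but the limma p was 0.101 (log2FC 0.35, SE 0.20). In all, 6 genes were higher in every MS_W mouse than in any C_W mouse (Srebf1, Insig2, Apoe, Abca1, Npc2 and Soat1), against 16.3% of all tested genes, and 0 were lower without overlap, against 8.22%. Insig2, the second retention protein of SREBPs, had an FPKM of 12.2, 11.2 and 10.3 in C_W and of 13.4, 12.7 and 14.5 in MS_W (log2FC 0.25, SE 0.13). Its paralogue Insig1 had an FPKM of 19.4, 22.5 and 21.9 in C_W and of 17.9, 21.9 and 31.3 in MS_W, with MS_W95 the highest. Leaving out MS_W95 and C_O72 turned its log2FC from 0.11 (SE 0.28) to -0.10 (SE 0.11).

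For the synthesis enzymes the log2FC in this comparison lay between -0.22 and 0.33, with 11 above and 7 below 0. With 10 libraries 7 were above 0, and Idi1, the isopentenyl diphosphate isomerase, had a log2FC of -0.36 (SE 0.14, limma, unadjusted p = 0.0321), against -0.22 (SE 0.25) in the 12 libraries. Hmgcs1 had an FPKM of 40.8, 46.3 and 44.9 in C_W and of 36.5, 47.1 and 36.8 in MS_W, and the groups overlapped (log2FC -0.14, SE 0.14). In the oil groups it was 39.4, 46 and 48.9 in C_O and 49.0, 37.6 and 39.7 in MS_O, which overlapped too (log2FC -0.09, SE 0.14).

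**Figure D2:**
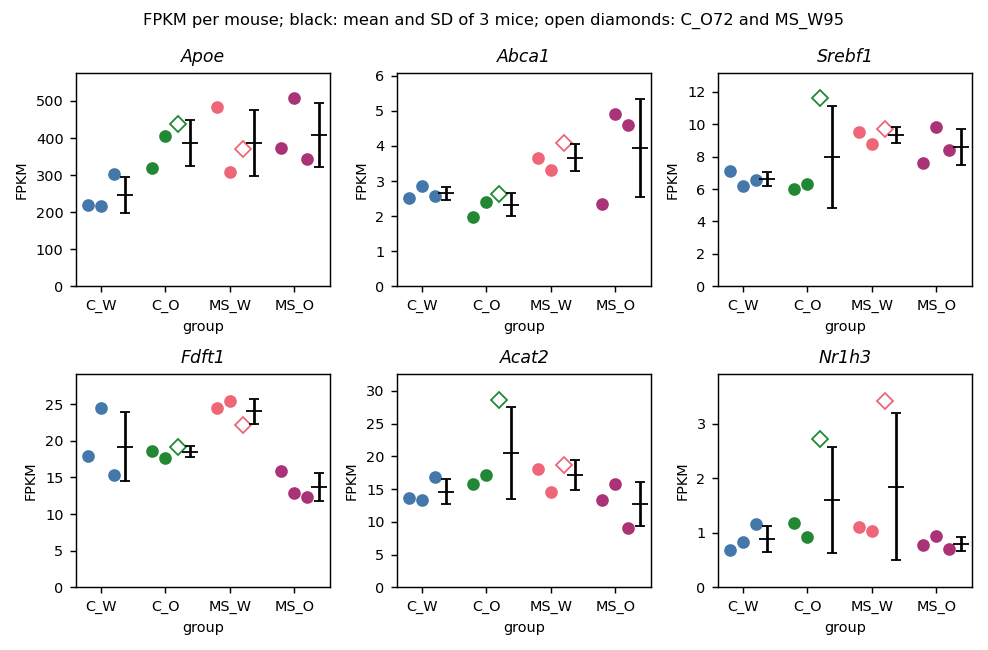
FPKM per mouse (points) in the 4 groups for 6 genes, with the mean and SD of 3 mice in black and the libraries C_O72 and MS_W95 as open diamonds. Apoe is lowest in C_W, Srebf1 is higher in both CUMS groups apart from C_O72, Fdft1 is lowest in MS_O, and the high values of Nr1h3 are the 2 diamonds.

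The second comparison asked how CUMS changed the same genes in mice given krill oil (C_O vs. MS_O). Fdft1 and Acat2, both enzymes of sterol synthesis, were lower in MS_O, and Abca1 was higher. These 3 genes had an unadjusted p under 0.05 by limma, 1 higher and 2 lower in MS_O, against 8.88% of all tested genes, so the share was near the background. After adjustment 0 passed, against 0.00467% of all genes. With 10 libraries 4 genes had an unadjusted p under 0.05, against 13.6% of all genes. Among all 1899 tested genes with an unadjusted p under 0.05, 1432 were higher in MS_O, and with each library centred on its median 758 of 2025 were higher. With that centring 7 cholesterol genes had an unadjusted p under 0.05, against 9.47% of all genes, of which Abca1 was higher in MS_O and Fdft1, Sqle, Acat2, Hsd17b7, Sc5d and Lrp1 were lower.

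Fdft1, the squalene synthase that commits farnesyl diphosphate to sterols, lies on chromosome 14 (ENSMUSG00000021273, 63145150 to 63179578). It had an FPKM of 18.6, 17.7 and 19.2 in C_O and of 15.8, 12.9 and 12.3 in MS_O. The groups did not overlap, and the C_O mice differed little among themselves (18.5 ± 0.735 against 13.7 ± 1.92, SD, n = 3). The log2FC was -0.42 (SE 0.16, limma, unadjusted p = 0.0226, adjusted p = 0.504) and -0.40 (SE 0.18, unadjusted p = 0.0559) in the 10 libraries. Without C_O72, MS_O46 or MS_O78 the limma p was 0.0523, 0.0648 and 0.0794.

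Acat2, the cytosolic thiolase that makes acetoacetyl-CoA, lies on chromosome 17 (ENSMUSG00000023832, 12942890 to 12960747). It had an FPKM of 15.7, 17.2 and 28.6 in C_O and of 13.3, 15.7 and 9.10 in MS_O. The groups met at 15.7, and C_O72 was well above and MS_O78 well below the others. The log2FC was -0.63 (SE 0.24, limma, unadjusted p = 0.0227, adjusted p = 0.504). Without C_O72 it was -0.38 (unadjusted p = 0.0933) and without MS_O78 -0.43 (unadjusted p = 0.102). In mice given water it was 13.6, 13.4 and 16.8 in C_W and 18.1, 14.5 and 18.7 in MS_W, with overlap (log2FC 0.21, SE 0.24).

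Abca1 (ENSMUSG00000015243, chromosome 4, 53030787 to 53159895) had an FPKM of 1.97, 2.41 and 2.62 in C_O and of 2.35, 4.92 and 4.59 in MS_O. MS_O13 lay within the C_O range, and the other MS_O mice were the highest of all 12. The log2FC was 0.53 (SE 0.20, limma, unadjusted p = 0.0212, adjusted p = 0.501) and 0.60 (SE 0.23, unadjusted p = 0.0286) in the 10 libraries. Leaving out MS_O13 gave a log2FC of 0.79 (unadjusted p = 0.000136), and Abca1 was then the only cholesterol gene in this comparison to pass after adjustment, where 0.524% of all genes passed. Without C_O15, MS_O46 or MS_O78 the limma p was 0.0723, 0.0929 and 0.0831.

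Of the 18 synthesis enzymes, 17 had a log2FC below 0 in this comparison, and the median over the 18 was -0.18. This direction rested largely on C_O72. Without C_O72 and MS_W95, 13 of the 18 were below 0 and the median was -0.03, against 0.03 over all tested genes in the 12 libraries and 0.05 in the 10. The groups did not overlap for 4 lower genes, namely Acat2, Fdft1, Ebp (an isomerase of the sterol ring) and Lrp1 (an APOE receptor), against 3.29% of all genes, and for 0 higher genes, against 8.90%.

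Srebf1 had an FPKM of 6.01, 6.31 and 11.6 in C_O and of 7.59, 9.80 and 8.40 in MS_O. C_O72 was the highest of the 12 libraries, and the remaining C_O mice were below every MS_O mouse. The log2FC was 0.14 (SE 0.20) in the 12 libraries and 0.42 (SE 0.11, limma, unadjusted p = 0.00452, adjusted p = 0.335) in the 10. The 10 libraries thus gave Srebf1 a log2FC of 0.41 without and 0.42 with krill oil, and the interaction was 0.01 (SE 0.15). Srebf2 had an FPKM of 29.5, 29.1 and 13.8 in C_O and of 29.0, 28.8 and 32.2 in MS_O, where only C_O72 stood out, and its log2FC in the 10 libraries was 0.03 (SE 0.09).

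Insig1 had an FPKM of 17.6, 20.6 and 40.6 in C_O and of 26.2, 24.3 and 23.5 in MS_O. Without C_O72 the groups did not overlap, and the log2FC changed from 0.01 (SE 0.28) to 0.36 (SE 0.11, limma, unadjusted p = 0.0123) in the 10 libraries. Insig2 had an FPKM of 11.9, 11.1 and 14.3 in C_O and of 10.9, 14.9 and 12.1 in MS_O, with overlapping groups. Cyp46a1 had an FPKM of 76.0, 83.4 and 17.8 in C_O and of 69.9, 62.4 and 71.8 in MS_O. Its log2FC was 0.47 (SE 0.61) in the 12 libraries and -0.23 (SE 0.09, limma, unadjusted p = 0.0289) in the 10.

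**Figure D3:**
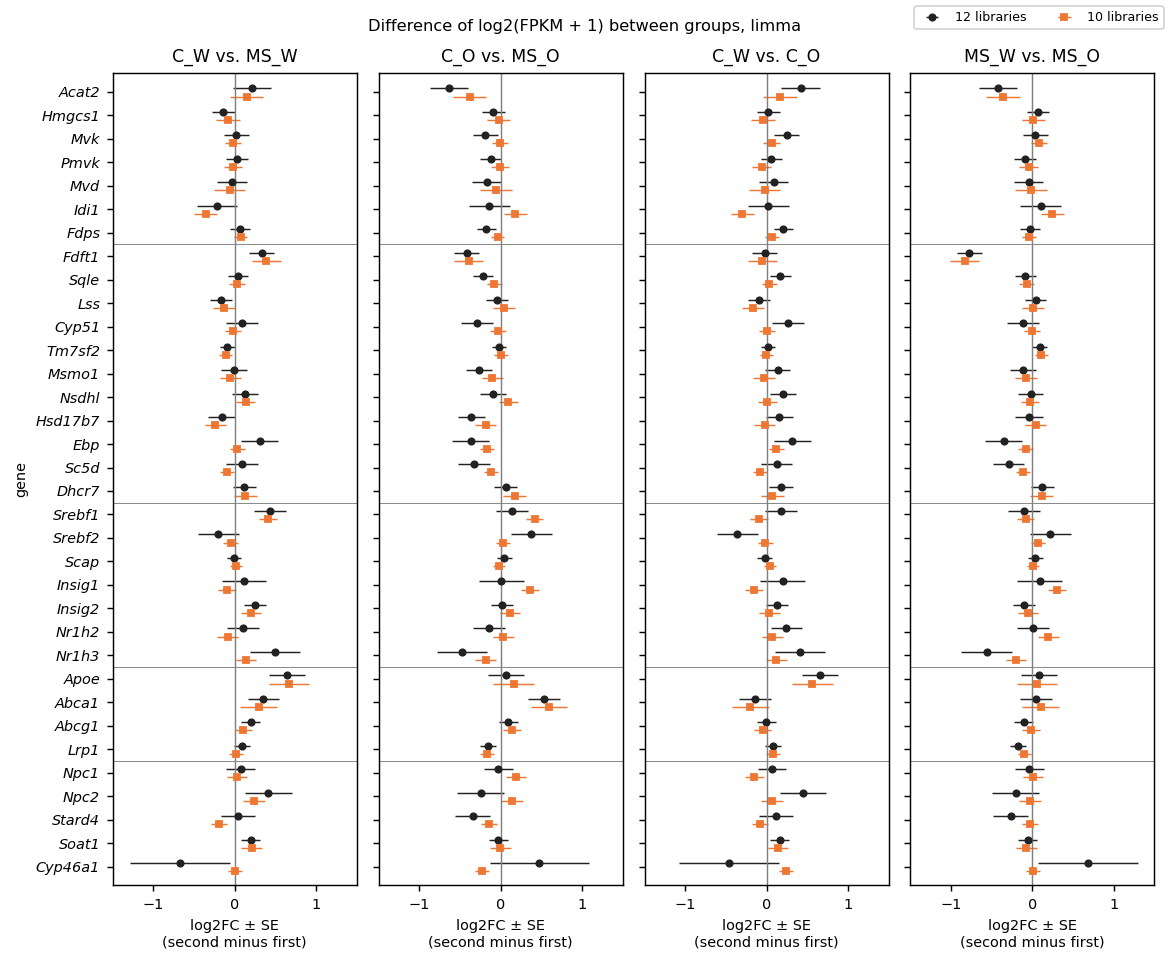
Difference of log2(FPKM + 1) with its SE (horizontal axis) for the 34 cholesterol genes (vertical axis, by role) in the 4 pairwise comparisons, with all 12 libraries in black and the 10 libraries without C_O72 and MS_W95 in orange. In C_O vs. MS_O the black points of 17 of the 18 synthesis enzymes lie left of 0 and most of the orange points lie nearer to 0.

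The third comparison asked what krill oil changed without CUMS (C_W vs. C_O). Apoe was 1.57-fold higher in C_O, with an FPKM of 220, 216 and 302 in C_W and of 319, 405 and 438 in C_O, and no mouse overlapped. The log2FC was 0.66 (SE 0.22, limma, unadjusted p = 0.0136, adjusted p = 0.908) and 0.56 (SE 0.25, unadjusted p = 0.0542) in the 10 libraries. Without C_W64 the limma p was 0.0503. In the ordinary linear model with the library size covariate the unadjusted p was not under 0.05. The C_W mice served in both this comparison and the first, so the higher Apoe of MS_W and of C_O are not independent. The 9 mice that received oil, CUMS or both all had an Apoe FPKM above 302, the highest value in C_W. Every C_W library was also deeper than the libraries of these mice, apart from C_O15 and MS_O13. A part of depth in the Apoe levels was not tested. The astrocyte marker sums were 97.7 to 117 in C_W and 99.8, 119 and 203 in C_O, which overlapped.

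Apoe was the only cholesterol gene with an unadjusted p under 0.05 by limma in this comparison, against 3.55% of all tested genes, and 0 passed after adjustment, as for all genes (0%). With 10 libraries 1 gene had an unadjusted p under 0.05, against 4.06% of all genes. That gene was Cyp46a1, with an FPKM of 71.7, 65.0 and 65.4 in C_W against 76.0 and 83.4 in C_O15 and C_O30, a log2FC of 0.24 (SE 0.09, limma, unadjusted p = 0.0231, adjusted p = 1). Groups did not overlap for 2 higher genes, Apoe and Lrp1, against 4.08% of all genes, and for 0 lower genes, against 5.34%.

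Over the 34 genes the median log2FC of krill oil was 0.13, against 0.00 over all tested genes, and 16 of the 18 synthesis enzymes were above 0. Without C_O72 and MS_W95 the median over the 34 genes was 0.00, and 8 of the 18 enzymes were above 0. Leaving out C_O15, which left C_O72 as 1 of only 2 C_O mice, gave 7 genes with an unadjusted p under 0.05, against 8.26% of all genes, which were Apoe, Sqle, Acat2, Nsdhl, Mvk, Dhcr7 and Fdps. The group values of Fdft1 overlapped here, at 17.9, 24.5 and 15.3 in C_W and between 17.7 and 19.2 in C_O.

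The fourth comparison asked what krill oil changed in stressed mice (MS_W vs. MS_O). Fdft1 was lower in every MS_O mouse, and it had the smallest p of any cholesterol gene in any comparison. Its FPKM was 24.5, 25.4 and 22.1 in MS_W and 15.8, 12.9 and 12.3 in MS_O. The groups were far apart relative to their spread (24.0 ± 1.73 and 13.7 ± 1.92, SD, n = 3), a ratio of 0.569. The log2FC was -0.78 (SE 0.16, limma, unadjusted p = 0.000522, adjusted p = 0.329) and -0.83 (SE 0.18, unadjusted p = 0.00141, adjusted p = 0.168) in the 10 libraries. Its unadjusted p was under 0.05 in all 22 alternatives. These are not independent, and leaving out a C_W or C_O library alters only the shared variance estimate. With DESeq2 on estimated counts Fdft1 passed after adjustment, as did 0.369% of all genes. Of its exon bases, 18.3% overlap exons of Ctsb on the opposite strand, and whether the counting used strand is not given in the sources used here. Ctsb, a lysosomal protease, had an FPKM of 93.6, 95.0 and 124 in MS_W and of 112, 88.4 and 91.9 in MS_O, with overlapping groups. MS_W31 and MS_W75, with Fdft1 at 24.5 and 25.4, had the high hypothalamic sums, and MS_W95, with Fdft1 at 22.1, had a sum of 1.08.

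Fdft1 was the only cholesterol gene with an unadjusted p under 0.05 here, against 6.09% of all tested genes, and 0 of the 34 passed after adjustment by limma, against 0.00467% of all genes. With 10 libraries 2 genes, Fdft1 and Insig1, had an unadjusted p under 0.05, against 8.54% of all genes. Insig1 had an FPKM of 17.9 and 21.9 in MS_W31 and MS_W75 and of 26.2, 24.3 and 23.5 in MS_O, a log2FC of 0.30 (SE 0.11, limma, unadjusted p = 0.0258) in the 10 libraries. With MS_W95, at 31.3, the groups overlapped and the log2FC was 0.09 (SE 0.28). Among the enzymes that flank Fdft1, Fdps, which makes its substrate, was between 10.3 and 10.9 in MS_W and between 9.73 and 11.2 in MS_O. Sqle, which oxidises squalene, was between 9.87 and 10.9 in MS_W and between 9.09 and 10.8 in MS_O. Both overlapped, and the median log2FC over the 18 enzymes was -0.04.

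The groups MS_W and MS_O did not overlap for 2 lower genes, Fdft1 and Nr1h3, against 7.66% of all genes, and for 0 higher genes, against 4.64%. Nr1h3 (ENSMUSG00000002108, chromosome 2, 91184061 to 91202834) had an FPKM of 1.11, 1.03 and 3.41 in MS_W and of 0.768, 0.944 and 0.697 in MS_O. Most of the difference lay in MS_W95, and the log2FC was -0.56 (SE 0.31, limma, unadjusted p = 0.0966) in the 12 libraries and -0.20 (SE 0.13, unadjusted p = 0.147) in the 10. In the unstressed groups it was 0.684, 0.838 and 1.16 in C_W and 1.18, 0.920 and 2.72 in C_O. Its paralogue Nr1h2, the liver X receptor beta, was more abundant and varied less. Nr1h2 had an FPKM of 11.1, 9.11 and 8.55 in C_W, of 11.0, 9.24 and 14.9 in C_O, of 9.76, 8.13 and 13.6 in MS_W and of 9.81, 10.8 and 10.4 in MS_O, again with C_O72 and MS_W95 on top. Its log2FC lay between -0.14 and 0.24 in the 4 comparisons, with an SE of 0.20.

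The interaction asked whether the difference between MS and C mice changed with krill oil. It had an unadjusted p under 0.05 by limma for 3 of the 34 genes, all negative (Fdft1, Acat2 and Nr1h3), against 7.23% of all tested genes, and for 0 after adjustment, against 0% of all genes. Without C_O72 and MS_W95 it was again 3 genes, against 7.51% of all genes, but these were Fdft1, Insig1 (0.46, SE 0.16, limma, unadjusted p = 0.02) and Idi1 (0.54, SE 0.20, unadjusted p = 0.0248). The interaction was below 0 for 26 of the 34 genes in the 12 libraries, with a median of -0.23 against -0.02 over all tested genes. In the 10 libraries it was above 0 for 17 of the 34, with a median of -0.001 against 0.01. For Fdft1 the interaction was -0.75 (SE 0.22, limma, unadjusted p = 0.00662, adjusted p = 0.652), since it was higher with CUMS in mice given water (log2FC 0.33) and lower with CUMS in mice given oil (-0.42). C_W64 differed from the other C_W mice, with an FPKM of 24.5 against 17.9 and 15.3.

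The libraries C_O72 and MS_W95 were each set against the other mice of their own group, with a 1.5-fold difference of log2(FPKM + 1) as the limit, which was chosen after seeing the data. There is no replicate check of a single library, so these are descriptions. In C_O72, 30 of the 34 cholesterol genes were higher than the mean of C_O15 and C_O30, including all 18 synthesis enzymes. Of the 13621 genes whose mean FPKM reached 1, 7471 were higher. The median difference was 0.41 on the log2 scale, against 0.06 over the 13621 genes. At least 1.5-fold higher were 11 of the 34 genes, against 16.3% of these 13621 genes, and at least 1.5-fold lower were 2, against 13.6%. In MS_W95, 23 of the 34 were higher than the mean of MS_W31 and MS_W75, against 7613 of the 13621 genes. The median difference was 0.13 against 0.05. There 4 were at least 1.5-fold higher, against 10.6% of genes, and 1 was at least 1.5-fold lower, against 11.9%.

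The synthesis enzymes were higher in C_O72 by unequal amounts. The FPKM of Idi1 was 2.06-fold higher than in the other C_O mice, Cyp51, the lanosterol demethylase, 1.75-fold and Acat2 1.74-fold, while Hmgcs1 was 1.14-fold and Fdft1 and Tm7sf2 1.06-fold higher. For 15 of the 18 enzymes C_O72 lay above the whole range of the 10 libraries, and MS_W95 did so for 4. The share of all genes above that range was not computed, so these counts are no result about the enzymes. Summed over the 18 enzymes, the FPKM was 305 in C_O72 and 242 in MS_W95, against 192 to 232 in the other 10. The regulators did not move as 1 group. In C_O72 Insig1 was 2.13-fold and Srebf1 1.88-fold higher, and the FPKM of Srebf2 was 0.47 of that of its group mates, 13.8 against 29.3. In MS_W95 Insig1 was 1.58-fold higher, Srebf1 was 1.06-fold higher and Srebf2 was at 0.72 of its group mates.

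Of the transport genes, Npc2, a lysosomal cholesterol carrier, was 2.32-fold higher in C_O72 and 1.47-fold higher in MS_W95. Stard4, a cytosolic sterol carrier, was 1.60-fold and 1.74-fold higher, and Npc1, the membrane partner of NPC2, was 1.66-fold and 1.12-fold higher. Apoe moved less, at 1.21-fold in C_O72 and 0.934 in MS_W95. Ebp, Insig1, Nr1h3 and Stard4 were at least 1.5-fold higher in both libraries, and Cyp46a1 alone was at least 1.5-fold lower in both.

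Cyp46a1 (ENSMUSG00000021259, chromosome 12, 108334381 to 108362234) had an FPKM of 17.8 in C_O72 and 15.8 in MS_W95. In each of the other 10 libraries it was between 62.4 and 83.4, with 67.9 and 67.4 in MS_W31 and MS_W75, so that these 2 libraries were at 0.223 and 0.233 of their group mates. In the same libraries the summed markers of oligodendrocytes, the myelin-forming cells, were 902 and 521 against 197 to 370. The astrocyte sums were 203 and 226 against 97.7 to 166, but not each astrocyte marker was raised in both. Slc1a3 had an FPKM of 35.1 in C_O72, the lowest of the 12, and of 92.1 in MS_W95, the highest. Gfap had 98.1 in C_O72 and 53.8 in MS_W95, the latter below MS_O46 (58.7) and MS_O78 (60.8). The 4 neuronal markers did not follow 1 direction. Syt1 had an FPKM of 34.7 and 62.1 against 160 to 231, and Rbfox3 had 23.3 in C_O72, the lowest of the 12, and 37.0 in MS_W95. Tubb3 had 353 in C_O72, the highest of the 12, and 202 in MS_W95, and Snap25 (367 and 339) lay within the range of the others (242 to 421). The sum of 3 choroid plexus markers was 4790 and 1790 there and 2.01 to 832 elsewhere. The part of regions and cell types in the levels of the cholesterol genes was not tested.

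**Figure D4:**
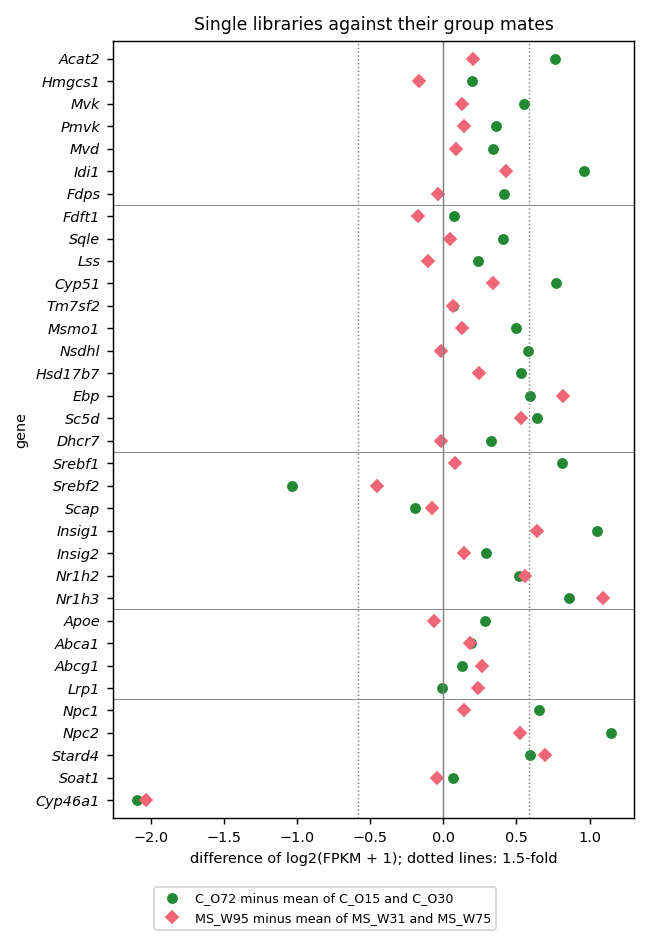
Difference of log2(FPKM + 1) (horizontal axis) between C_O72 (circles) or MS_W95 (diamonds) and the mean of the other mice of the same group, for the 34 cholesterol genes (vertical axis, by role), with dotted lines at a 1.5-fold difference. All 18 synthesis enzymes lie right of 0 in C_O72, and Cyp46a1 lies near -2.10 and -2.03.

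**Figure D5:**
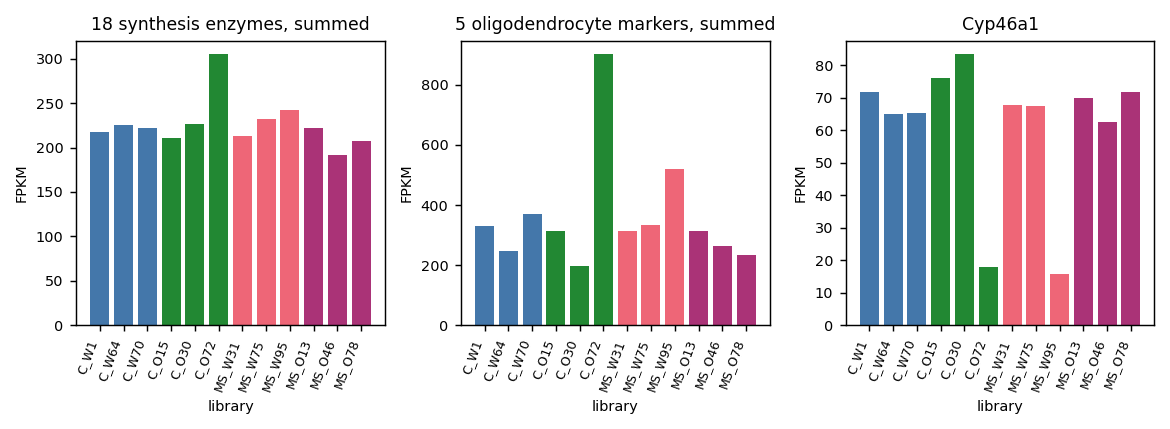
FPKM in each of the 12 libraries (bars, coloured by group), summed over the 18 synthesis enzymes, summed over 5 oligodendrocyte markers, and of Cyp46a1. C_O72 and MS_W95 have the highest bars in the first and second panels (305 and 242, 902 and 521) and the lowest for Cyp46a1 (17.8 and 15.8).

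The other genes of sterol metabolism were taken as a list of 81 genes, of which 79 were tested. It held the machinery that processes SREBPs, lipoproteins and their receptors, sterol carriers, oxysterol enzymes, partners of the liver X receptors, fatty acid genes of the SREBP programme and isoprenoid branches. By limma 9 of the 79 had an unadjusted p under 0.05 in C_W vs. MS_W (6 higher and 3 lower), 7 in C_O vs. MS_O (4 and 3), 4 in C_W vs. C_O (2 and 2), 5 in MS_W vs. MS_O (2 and 3) and 6 in the interaction (3 and 3). None of them passed after adjustment in any of these. In the same order 10.5%, 8.88%, 3.55%, 6.09% and 7.23% of all genes had an unadjusted p under 0.05, so these counts were near the background. Those with the smallest p in C_W vs. MS_W were Trib1, a pseudokinase of protein degradation (log2FC -0.62, SE 0.17), Lrpap1, the chaperone of LRP receptors (0.35, SE 0.10), and Vldlr, a lipoprotein and reelin receptor (0.46, SE 0.13).

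In C_O vs. MS_O they were Scd2, a brain stearoyl-CoA desaturase (log2FC -2.55, SE 0.72), Lrp8, the other reelin receptor (1.11, SE 0.34), and Mbtps1, the first protease that cuts SREBPs (0.28, SE 0.09). Mbtps1 was also higher in MS_W than in C_W (0.26, SE 0.09, limma, unadjusted p = 0.0138). Scd2 had an FPKM of 269, 42.6 and 47.4 in C_W, of 244, 230 and 468 in C_O, of 296, 298 and 69.1 in MS_W and of 42.6, 59.4 and 49.5 in MS_O. Its libraries fell at separate levels that did not follow the groups, apart from C_O and MS_O. In MS_W vs. MS_O the smallest p was that of Ch25h, the cholesterol 25-hydroxylase (0.30, SE 0.10), followed by Vldlr (-0.37, SE 0.13). The level of Ch25h was low, with an FPKM of 0.126, 0.0933 and 0.117 in MS_W and of 0.197, 0.451 and 0.49 in MS_O.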

How the data were processed

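The authors trimmed reads of a stranded poly(A) library (dUTP method), aligned them to mm10, assembled and merged transcripts and estimated expression with Ballgown. The submitters' processing notes name cutadapt 1.9, HISAT2 2.0.4 and StringTie 1.3.4d. The deposited values were FPKM, scaled by the authors to mapped fragments, and estimated counts, with no scaling across libraries. In 806 genes that have 1 transcript the deposited estimated counts equalled FPKM times length times a factor per library (median deviation 0.0165%), so they are not counts of single reads. A gene without an estimate was listed by the authors at an FPKM of 0.0001. The coordinates of 31 of the 34 genes were those of GENCODE M21, and 11 overlap an exon of another gene.

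The 12 samples were grouped by their titles, which carry group and mouse number, and each is a separate mouse. Tests were run with limma 3.58.1 under R 4.3.3, using a linear model and trended moderation of log2(FPKM + 1), on genes whose mean FPKM reached 0.1. It was checked on simulated data for C_W vs. MS_W, where 100% of 200 genes changed 4-fold among 21393 were recovered with 8 false calls. The simulated counts had the same small dispersion for every gene, and only genes with ample counts were changed. No library differed in brain region. The check therefore does not give the power of the tests for the smaller changes in the real libraries. The alternatives were a pseudocount of 0.1, other FPKM filters, median centring, quantile normalization, fits of only the compared groups, and leaving out each library. Others were the 10 libraries without C_O72 and MS_W95, and edgeR 4.0.16 and DESeq2 1.42.0 on rounded estimated counts. The last was an ordinary linear model with the log2 of the summed FPKM up to the upper quartile as a library size covariate.

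The members and lists were chosen with earlier results of these data known. Values in every library are given for genes with, in the fit of all 12 libraries, an unadjusted p under 0.05 in a comparison or the interaction, for the most abundant gene of each role and for the pairs Srebf1 and Srebf2, Insig1 and Insig2, and Nr1h2 and Nr1h3. Other genes are given by range and counts, and genes of the wider list only with an unadjusted p under 0.05, at most 3 per comparison. Genes named for C_O72, MS_W95 or the 10 libraries, and the neighbours of Fdft1, were chosen after their values were seen. Some genes of the pathway were not analysed here.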

Additional observations from a re-analysis of the deposited data

Results flagged for a closer look

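The interaction of CUMS and krill oil (limma, log2 scale) had an unadjusted p under 0.05 for 3 of the 34 cholesterol genes, against 7.23% of all tested genes, and an adjusted p under 0.05 for none. The count was near the background. For Fdft1 the interaction was -0.75 (SE 0.22, limma, unadjusted p = 0.00662, adjusted p = 0.652), and its unadjusted p was under 0.05 in all 21 alternatives. The alternatives share their mice and are not independent. For Acat2 it was -0.85 (SE 0.34, limma, unadjusted p = 0.0296, adjusted p = 0.665), with an unadjusted p under 0.05 in 13 of 21 alternatives, and -0.53 (SE 0.29) in the 10 libraries. For Nr1h3 it was -0.97 (SE 0.44, limma, unadjusted p = 0.0492, adjusted p = 0.665), with an unadjusted p under 0.05 in 8 of 21 alternatives, and -0.32 (SE 0.18) in the 10 libraries. The high values of Acat2 in C_O72 (28.6) and of Nr1h3 in C_O72 and MS_W95 (2.72 and 3.41) enter these interactions.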

How the results depend on the processing

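For the genes with an unadjusted p under 0.05 in the limma fit of all 12 libraries, no log2FC in that comparison changed sign under any alternative. In a pairwise comparison, leaving out a library of another group cannot change the log2FC. Of the genes with such a p in the 10 libraries alone, Cyp46a1 in C_O vs. MS_O (-0.23) and in C_W vs. C_O (0.24) and Insig1 in the interaction (0.46) had the opposite sign in the 12 (0.47, -0.46 and -0.11). The number of cholesterol genes with an unadjusted p under 0.05 changed as follows, with the share of all tested genes beside it. In C_W vs. MS_W it was 1 (10.5%), and it was 2 with a pseudocount of 0.1 (10.5%), 4 in the fit of the compared groups alone (13.8%), 3 with DESeq2 (11.6%), 3 in the 10 libraries (15.4%), and 0 to 3 with a library left out (6.66% to 15.8%), with 0 without C_W1, 2 without C_O15, C_O30 or MS_O13, and 3 without C_O72. In C_O vs. MS_O it was 3 (8.88%), and it was 7 with median centring (9.47%), 1 in the fit of the compared groups alone (5.91%), 1 with the library size covariate (8.50%), 5 with edgeR (8.54%), 8 with DESeq2 (10.5%), and 0 to 5 with a library left out (4.29% to 13.8%), with 0 without MS_O78, 1 without MS_O46, and 5 without C_O15 or MS_O13. In C_W vs. C_O it was 1 (3.55%), and it was 0 with the library size covariate (3.25%), and 0 to 7 with a library left out (2.20% to 8.26%), with 0 without C_W64 and 7 without C_O15. In MS_W vs. MS_O it was 1 (6.09%), and it was 2 with edgeR (5.65%), DESeq2 (7.25%) or the 10 libraries (8.54%), and 1 to 3 with a library left out (3.72% to 9.12%), with 3 without MS_W75, and 2 without C_O72, MS_O13 or MS_O46. The interaction gave 3 (7.23%), and 1 to 6 with a library left out (4.64% to 10.2%), with 6 without MS_W75, and 1 without C_W1, C_W64, C_O72, MS_W95 or MS_O78. After adjustment the number was 0 in each comparison except for 1 gene (Fdft1, DESeq2, 0.369% of all genes) in MS_W vs. MS_O and 0 to 1 with a library left out in C_O vs. MS_O (Abca1, without MS_O13, 0.524% of all genes). The median log2FC of the cholesterol genes in C_W vs. MS_W moved from 0.09 to -0.10 with the library size covariate. The cause of these changes was not tested.

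With 1 library left out, the remaining mice of that group were assumed to vary like the other groups. No paired analysis was possible because the replicate numbers are mouse numbers that the groups do not share. The log2FC was larger than its SE for 4 of the 18 synthesis enzymes in C_W vs. MS_W, 10 in C_O vs. MS_O, 8 in C_W vs. C_O and 4 in MS_W vs. MS_O. For the interaction it was 9 of the 18. The share of all tested genes past this limit was not computed, so these counts are no result about the enzymes. Every cholesterol gene had an estimated count of at least 116 in each library, which bears on counting error and not on the difference in depth between C_W and MS_W.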
